A study of Mus musculus with 20 samples.

Results

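The SMADs and the SMAD corepressors were followed in primary mouse renal myofibroblasts as 10 genes chosen by name: the receptor-regulated SMADs Smad1, Smad2, Smad3, Smad5 and Smad9, the common SMAD Smad4, the inhibitory SMADs Smad6 and Smad7, and the corepressors Ski and Skil, of 51826 genes counted. All 10 passed the filter on low counts, as did 20407 genes in all. The study compared WT and WWP2-/- cells, each untreated or treated with TGFβ1, with 5 libraries in each of the 4 groups and 20 in all. Myofibroblasts are matrix-producing stromal cells. They were grown out of kidney pieces from C57BL/6J mice and taken at the second passage, and the WWP2-/- line, bred from heterozygous parents, lacks the full-length and N isoforms of the ubiquitin ligase WWP2 in every cell of the animal. Reads of other isoforms, where made, count toward the gene. The labels do not say which animal each culture came from, and p-values measure the spread between these cultures.

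SMADs carry the signal of the TGFβ superfamily from the cell surface to the nucleus. Activated type I receptors phosphorylate SMAD2 and SMAD3 after TGFβ or activin, and SMAD1, SMAD5 and SMAD9 after bone morphogenetic proteins (BMPs), and the phosphorylated proteins enter the nucleus with SMAD4 and bind target genes. SMAD6 and SMAD7 are induced by the pathway and switch it off at the receptor, SMAD6 mainly in the BMP branch and SMAD7 in both, while SKI and SKIL (SnoN) hold SMAD complexes in a repressed state. In kidney stroma the TGFβ-SMAD3 branch drives matrix genes and the BMP branch is known to oppose it, and ligases of the NEDD4 family, WWP2 among them, bind SMAD2, SMAD3 and SMAD7 and control their turnover. Protein turnover and phosphorylation were not measured here, since the libraries report RNA alone.

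Levels are given as CPM (counts scaled to a common library size) after TMM normalization, a correction for RNA composition, and, between genes, as CPM per kb of exon. Totals ran from 47520759 to 73063697 counts, with a median of 55863325. Counts behind single values ran from 71 to 1379 for Smad9 and from 752 to 5493 for Smad6, and the lowest count of any other member was 1725, in Smad1. Wwp2 was at 49.99 to 59.9 CPM in the 10 WT libraries and at 17.0 to 22.7 CPM in the 10 WWP2-/- libraries, and edgeR called it lower in WWP2-/- without TGFβ1 (log2 fold change -1.37, SE 0.08, adjusted p = 4.32e-08) and with it (-1.49, SE 0.08, adjusted p = 1.06e-08). WWP2-/- replicate 3 and TGFβ1-treated WWP2-/- replicate 1 stood apart from the other libraries and resembled each other most (r = 0.992), and WT replicate 4 and TGFβ1-treated WT replicate 3 each resembled a WWP2-/- library more than any WT library. Xist RNA, which is made from the inactive X chromosome, exceeded 1 CPM in 4 of 5 WT, 4 of 5 TGFβ1-treated WT, 2 of 5 WWP2-/- and 1 of 5 TGFβ1-treated WWP2-/- libraries, so this difference between cultures moved with genotype. Summed over 10 fibroblast markers, TGFβ1-treated libraries held 12750 to 36710 CPM in WT and 4320 to 16900 CPM in WWP2-/- cells, and 10 macrophage markers summed to 61.0 to 432 CPM and to 72.8 to 3494 CPM. Summed over 10 tubular markers, treated libraries held 36.7 to 197.7 CPM in WT and 12.1 to 545.9 CPM in WWP2-/- cells, and untreated libraries 32.8 to 419.8 and 13.8 to 707.7 CPM. Of these markers Cdh16 reached 366.3 CPM and Pax8 195.3 CPM, while Slc34a1 and Aqp2 were under 0.1 CPM in every library, as was Ren1, a marker of renin cells. The 7 tubular markers that could be tested had a median log2 fold change of 2.16 in WWP2-/- against WT cells with TGFβ1 (1 at an unadjusted p under 0.05, 0 called by edgeR, and 1, Krt18, called higher by DESeq2, which called 13.1% of all genes). For TGFβ1 in WT cells it was -2.26 (2 at an unadjusted p under 0.05, 0 called by edgeR or DESeq2). The part of these markers in the results was not tested. In such mixed cultures, fewer cells of a type and less RNA per cell cannot be told apart.

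Per length, Ski was the most abundant of the 10 genes and Smad9 the least. Mean levels over the 20 libraries were 51.3 CPM per kb for Ski, 29.6 for Smad4, 26.8 for Smad3, 19.0 for Smad7, 17.1 for Smad6, 9.86 for Smad5, 9.73 for Skil, 7.66 for Smad1, 6.64 for Smad2 and 1.70 for Smad9, all in CPM per kb. Neighbours in this order changed places between libraries. Ski exceeded Smad4 in 18 of 20 libraries, Smad4 exceeded Smad3 in 15, Smad3 exceeded Smad7 in 18 and Smad2 exceeded Smad9 in 20. Smad7 exceeded Smad6 in 10 of 20 libraries, and Skil exceeded Smad1 in 12. The order of Smad6 and Smad7 differed between groups. With TGFβ1 the ratio of Smad6 to Smad7 was 1.17 to 1.71 in WT and 0.230 to 0.752 in WWP2-/- libraries. Without it the ratio was 0.501 to 1.61 in WT and 0.213 to 1.003 in WWP2-/- libraries. Smad6 exceeded Smad5 in 16 libraries, Smad5 exceeded Skil in 14 and Smad1 exceeded Smad2 in 13. Among the genes tested, Ski stood at percentile 95.3 of the level per kb and Smad9 at percentile 47.4.

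**Figure D1:**
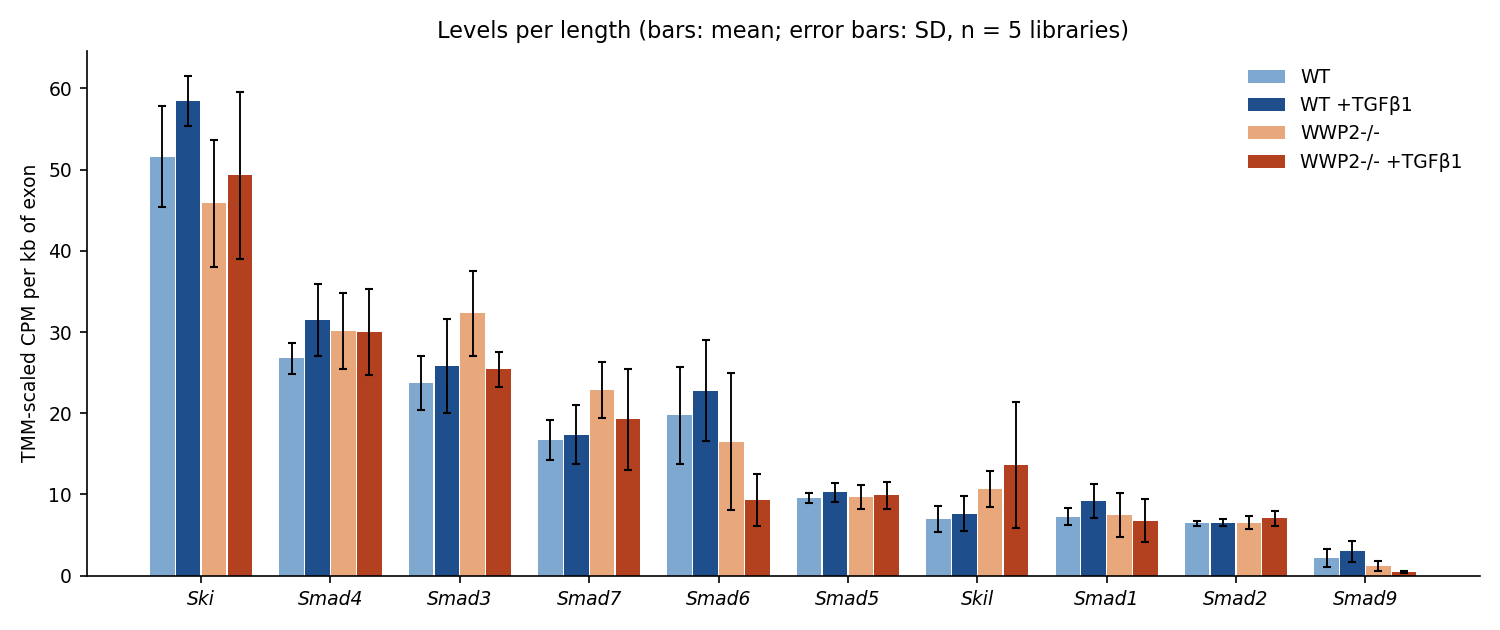
Mean level of each of the 10 genes in TMM-scaled CPM per kb of exon, for the 4 groups of 5 libraries, with SD as error bars. Ski stands highest at 51.3 CPM per kb over all libraries and Smad9 lowest at 1.70, and the bars of Smad6 and Smad9 are shortest in WWP2-/- cells with TGFβ1.

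By role, the corepressors held the largest share of the summed level of the 10 genes. Ski and Skil together made up 34.3% ± 2.3 (SD, n = 5) of it in WT, 34.3% ± 0.95 in TGFβ1-treated WT, 30.9% ± 1.0 in WWP2-/- and 36.4% ± 4.7 in TGFβ1-treated WWP2-/- libraries. The untreated groups did not overlap in this share, at 32.04% to 38.1% in WT and 29.4% to 31.9% in WWP2-/- libraries. The TGFβ-type SMADs, Smad2 and Smad3, made up 17.7% ± 2.0 in WT and 21.2% ± 0.51 in WWP2-/- libraries, and the libraries of these groups did not overlap either (14.8% to 20.2% against 20.8% to 22.0%). The BMP-type SMADs Smad1, Smad5 and Smad9 held 11.6% ± 0.23 in TGFβ1-treated WT and 10.1% ± 1.3 in TGFβ1-treated WWP2-/- libraries. The inhibitory SMADs held 20.96% ± 5.3 and 16.5% ± 2.6 in those groups, with overlapping libraries. Untreated, the groups overlapped in the shares of the BMP-type SMADs, the inhibitory SMADs and Smad4. All shares are parts of the same sum, so they depend on each other, and they were not tested. How often other sets of genes separate in this way was not examined.

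The genes also differed in how far they ranged between libraries. Smad9 ranged 19.2-fold over the 20 libraries, from 1.43 to 27.5 CPM, Smad6 7.31-fold and Skil 5.52-fold. The other members stayed within narrower limits, from 1.44-fold for Smad2 to 2.43-fold for Smad1. Smad2 lay between 51.3 and 73.8 CPM in every library.

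**Figure D2:**
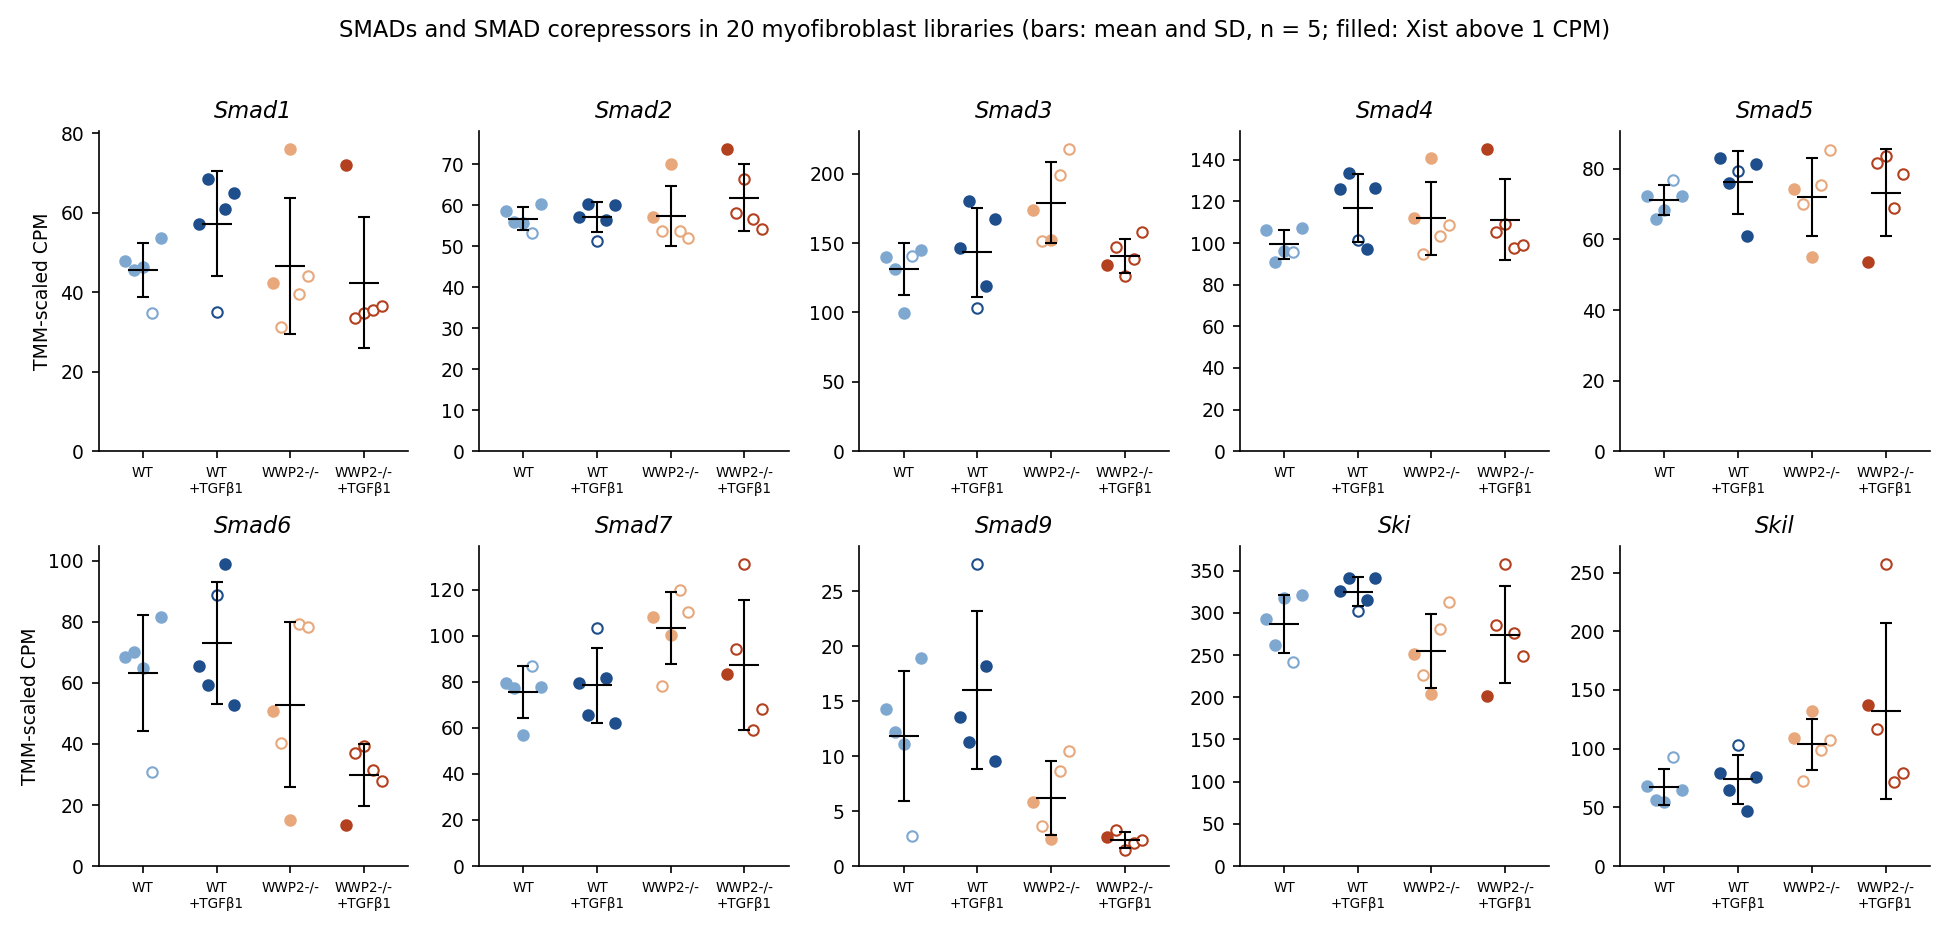
TMM-scaled CPM of each gene in each of the 20 libraries, by group, with the mean and SD (n = 5) as black marks. Filled points are libraries with Xist above 1 CPM. With TGFβ1, every WWP2-/- library lies below every WT library for Smad9 (1.43 to 3.29 against 9.60 to 27.5 CPM) and Smad6 (13.6 to 39.4 against 52.9 to 99.1 CPM).

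The first question was whether TGFβ1, the ligand of the SMAD2/SMAD3 branch, changed RNA of the pathway's own components. In WT cells none of the 10 genes passed the test, and neither did any other gene: edgeR called 0 of 20407 genes (0%), with 1397 at an unadjusted p under 0.05, none of them a member, and DESeq2 called 27 genes and no member. All 10 estimates were above 0, with a median log2 fold change of 0.16, beside 0.02 over all genes tested. Without WT replicate 4 and treated WT replicate 3, those of Smad6 (-0.04), Smad7 (-0.01) and Smad9 (-0.10) were below 0, and that of Smad2 was below 0 with the stricter filter, with only the groups compared and without the pair standing apart. For the feedback genes Smad6 (log2 fold change 0.21, 95% interval -0.56 to 0.98), Smad7 and Skil the intervals allowed changes in either direction. Smad7 was at 75.6 ± 11.2 CPM (SD, n = 5) without and 78.4 ± 16.3 CPM with TGFβ1, a log2 fold change of 0.05 (95% interval -0.35 to 0.45). Skil, a known early target of TGFβ, was at 67.3 ± 15.4 and 73.9 ± 20.7 CPM, a log2 fold change of 0.14 (-0.48 to 0.75). The largest estimate was that of Smad9, 0.44 (-0.48 to 1.36). The 10 macrophage markers summed to 152.7 to 3955 CPM in untreated and 61.0 to 432 CPM in treated WT libraries, with all 10 at an unadjusted p under 0.05 and 0 called by edgeR or DESeq2, and their part in these estimates was not tested. No member's groups separated, and 1.35% of all genes had WT groups whose libraries did not overlap.

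In WWP2-/- cells TGFβ1 again called no member among 0 of 20407 genes (0%) by edgeR, while 713 genes had an unadjusted p under 0.05 and DESeq2 called 44 genes and no member. There, 3 members had an unadjusted p under 0.05, and all 3 estimates were below 0. Smad9 had a mean of 6.22 ± 3.37 CPM without and 2.37 ± 0.69 CPM with TGFβ1 (log2 fold change -1.39, SE 0.45, edgeR adjusted p = 0.76). Smad6 had 52.8 ± 27.1 and 29.9 ± 10.2 CPM (-0.82, SE 0.37, edgeR adjusted p = 0.9999), and Smad3 had 179.0 ± 29.3 and 140.8 ± 12.2 CPM (-0.35, SE 0.15, edgeR adjusted p = 0.9999). For all 3 the libraries of the groups overlapped. Non-overlapping groups were found for 0.377% of all genes and for no member. The median log2 fold change was -0.07 over the members and 0.00 over all genes.

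**Figure D3:**
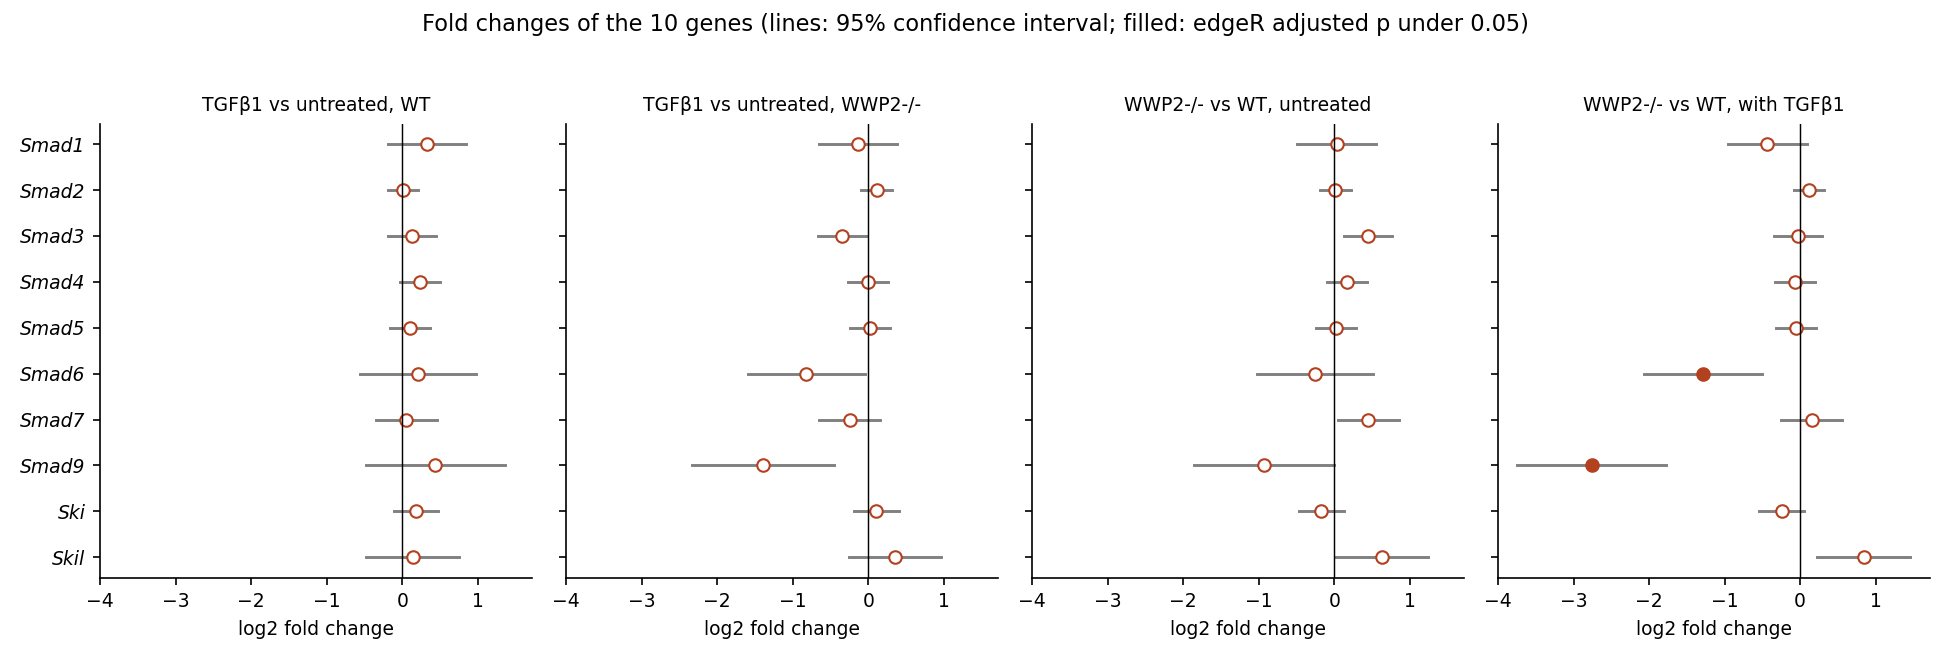
Log2 fold change (x axis) of each gene in the 4 pairwise comparisons, with 95% confidence intervals from the edgeR fit. Filled points passed at an adjusted p under 0.05, and these are Smad6 (-1.29) and Smad9 (-2.76) in WWP2-/- against WT cells with TGFβ1.

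Without TGFβ1, none of the 10 genes passed the test between WWP2-/- and WT cells, and the largest estimates were those of Smad9, below 0, and of Skil, Smad7 and Smad3, above 0. edgeR called 0 members among 148 genes called of 20407 (0.725%; 0.103% higher and 0.622% lower), and DESeq2 called 747 genes and no member. An unadjusted p under 0.05 was found for 3 members and for 3044 of 20407 genes. Smad3, the main effector of the fibrotic response, was at 140.3, 131.5, 99.3, 140.9 and 145.2 CPM in WT replicates 1 to 5 and at 174.1, 151.3, 152.3, 199.2 and 217.9 CPM in WWP2-/- replicates 1 to 5. Every WWP2-/- library lay above every WT library (log2 fold change 0.45, SE 0.15, edgeR adjusted p = 0.185). It was the only member whose groups did not overlap, in a comparison where 2.79% of all genes behaved so. With TGFβ1 the Smad3 groups overlapped, at 143.2 ± 32.1 CPM in WT and 140.8 ± 12.2 CPM in WWP2-/- cells (-0.02, 95% interval -0.34 to 0.29).

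Smad7, the inhibitor of both branches, was at 79.3, 77.1, 56.9, 87.01 and 77.6 CPM in WT and at 108.2, 78.0, 100.4, 119.7 and 110.3 CPM in WWP2-/- replicates 1 to 5 (log2 fold change 0.45, SE 0.19, edgeR adjusted p = 0.288). A single WWP2-/- library, replicate 2, lay within the WT range. With TGFβ1 the means were 78.4 ± 16.3 and 87.1 ± 28.2 CPM (0.15, 95% interval -0.25 to 0.55).

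Skil was higher on average in WWP2-/- cells under both conditions, without passing the test in either. Untreated WT replicates 1 to 5 were at 68.4, 56.1, 54.5, 92.9 and 64.5 CPM, and WWP2-/- replicates at 109.2, 72.0, 131.9, 98.7 and 107.2 CPM (log2 fold change 0.63, SE 0.29, edgeR adjusted p = 0.325). Here WT replicate 4 lay within the WWP2-/- range and above WWP2-/- replicate 2, which were the only exceptions to a clean separation. With TGFβ1, WT replicates were at 79.7, 64.6, 103.0, 46.7 and 75.7 CPM and WWP2-/- replicates at 137.4, 116.9, 257.5, 71.2 and 79.1 CPM (0.84, SE 0.29, edgeR adjusted p = 0.0891). Replicate 3 of the treated WWP2-/- cells was the highest Skil value of the series. DESeq2, which called 13.1% of all genes in either direction, called Skil higher with TGFβ1 (log2 fold change 0.85, adjusted p = 0.0473). So did edgeR without WT replicate 4 and TGFβ1-treated WT replicate 3 (0.99, adjusted p = 0.036), a fit that called 16.5% of all genes. Of the 9 alternative fits these 2 passed, with log2 fold changes from 0.77 to 0.99 and adjusted p from 0.036 to 0.204. Leaving out 1 of these libraries gave 0.44 to 0.99 (edgeR adjusted p from 0.0456 to 0.249), with 1 of 10 fits passing, and the value of 0.44 was that without treated WWP2-/- replicate 3. The ratio of Skil to Ski, both per kb, was 0.138 ± 0.048 in WT, 0.131 ± 0.042 in treated WT, 0.241 ± 0.078 in WWP2-/- and 0.274 ± 0.122 in treated WWP2-/- libraries.

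With TGFβ1, 2 of the 10 genes were lower in WWP2-/- than in WT cells, and both belong to the BMP branch: Smad9, a receptor-regulated SMAD of that branch, and Smad6, its inhibitor. edgeR called 1238 of 20407 genes (6.07%) in this comparison, 2.1% higher and 3.96% lower, so 2 of 10 members called lower stands beside 3.96%. The libraries of the groups did not overlap for the same 2 members, beside 5.67% of all genes. An unadjusted p under 0.05 was found for 3 members and for 5035 of 20407 genes. Over the 10 members the median log2 fold change was -0.06, and over all genes 0.05.

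Smad9 was at 13.6, 11.3, 27.5, 18.2 and 9.60 CPM in treated WT replicates 1 to 5 and at 2.66, 3.29, 1.43, 2.10 and 2.37 CPM in treated WWP2-/- replicates 1 to 5. The highest WWP2-/- library was below the lowest WT library by more than the whole WWP2-/- range. The log2 fold change was -2.76 (SE 0.47, 95% interval -3.74 to -1.77, edgeR adjusted p = 0.00639), or 6.76-fold lower. It passed under every alternative fit tried, with adjusted p from 5.55e-07 to 0.0236, and under all 10 fits that left out 1 of these libraries, with adjusted p from 0.00409 to 0.0243. Among libraries with Xist, treated WT was at 9.60 to 18.2 CPM and the 1 treated WWP2-/- library at 2.66 CPM, and among those without, the 1 treated WT library was at 27.5 CPM and treated WWP2-/- at 1.43 to 3.29 CPM.

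Without TGFβ1, Smad9 was at 14.3, 12.2, 11.1, 2.72 and 19.0 CPM in WT and at 5.79, 3.66, 2.46, 8.69 and 10.51 CPM in WWP2-/- replicates 1 to 5. All WWP2-/- libraries were below 4 of the WT libraries, and WT replicate 4, which resembled WWP2-/- libraries over all genes, was below 4 of the WWP2-/- libraries. The estimate was -0.93 (SE 0.44, edgeR adjusted p = 0.335). Whether the effect of genotype differed with treatment was tested as an interaction, which edgeR called for 0 of 20407 genes (0%), with 1424 at an unadjusted p under 0.05, 2 of them members, while DESeq2 called 10 genes and no member. For Smad9 the interaction was -1.83 (SE 0.63, edgeR adjusted p = 0.549), and for Smad3 it was -0.47 (SE 0.21, edgeR adjusted p = 0.68).

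Smad6 was at 65.5, 59.3, 88.7, 99.1 and 52.9 CPM in treated WT and at 13.6, 37.2, 39.4, 31.4 and 27.8 CPM in treated WWP2-/- replicates 1 to 5. These groups did not overlap, and the log2 fold change was -1.29 (SE 0.37, 95% interval -2.07 to -0.51, edgeR adjusted p = 0.0473), or 2.45-fold lower. The call lay at the threshold. It was lost in 9 of the 10 fits that left out 1 of these libraries, all but the one without treated WWP2-/- replicate 3, with adjusted p from 0.0494 to 0.112 and log2 fold changes from -1.43 to -1.13. Among libraries with Xist, treated WT was at 52.9 to 99.1 CPM and treated WWP2-/- at 13.6 CPM, and among those without, at 88.7 CPM and at 27.8 to 39.4 CPM. Without TGFβ1 the groups overlapped widely, with 68.6, 70.2, 64.9, 30.9 and 81.5 CPM in WT and 50.8, 40.5, 15.1, 79.3 and 78.4 CPM in WWP2-/- replicates 1 to 5 (-0.26, SE 0.37, edgeR adjusted p = 0.763). The lowest Smad6 values of the series, 13.6 and 15.1 CPM, were those of the pair of WWP2-/- libraries that stood apart. The per-kb ratio of Smad6 to Smad7 was 1.31 ± 0.23 in treated WT and 0.508 ± 0.194 in treated WWP2-/- libraries, with ranges of 1.17 to 1.71 and 0.230 to 0.752.

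The start regions of Smad9 and Smad6 are shown because these were the members that passed the test. They come from RefSeq on GRCm38.p6, which is the build family of the files, and run from 250 bases before to 30 bases after the annotated start, 5′ to 3′ on the strand of the gene. Smad9 lies on chromosome 3 (54755582 to 54801257, plus strand) and Smad6 on chromosome 9 (63953076 to 64022059, minus strand), 195081 bases from Smad3. In each, capitals mark the motif that was found: GGCGCC, the GC-rich element bound by SMAD1 and SMAD5, in Smad9, and GTCTAGAC, the palindromic SMAD-binding element, in Smad6.
Smad9, chr3:54755332-54755611: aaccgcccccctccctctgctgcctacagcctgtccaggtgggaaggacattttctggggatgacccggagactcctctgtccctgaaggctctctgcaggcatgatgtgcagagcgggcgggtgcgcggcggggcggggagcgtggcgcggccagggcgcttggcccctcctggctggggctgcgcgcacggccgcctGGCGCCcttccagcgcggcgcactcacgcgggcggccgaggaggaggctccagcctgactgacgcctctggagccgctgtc
Smad6, chr9:64022030-64022309: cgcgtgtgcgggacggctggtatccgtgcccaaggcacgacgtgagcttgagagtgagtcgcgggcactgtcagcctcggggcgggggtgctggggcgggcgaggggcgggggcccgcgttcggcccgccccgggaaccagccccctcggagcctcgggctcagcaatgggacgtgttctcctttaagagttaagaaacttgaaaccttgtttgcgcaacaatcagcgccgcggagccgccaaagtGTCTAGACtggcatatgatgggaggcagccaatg

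Within 250 bases before and 50 after the start, Smad9 held 1 GGCGCC, whose first base is at position -51, and Smad6 held 1 GTCTAGAC at position -4. GGCGCC occurs in 11.9% of the 32851 RefSeq promoter windows of that length and GTCTAGAC in 0.213%, both motifs being their own reverse complement. GTCTAGAC was added to the search after the Smad6 sequence had been seen. The core element CAGAC, searched on both strands, was in neither window and is in 49.6% of all windows, and none of the 3 motifs contains another. Windows were found for 6 of the 10 genes. Of the others found, the windows of Smad5 and Ski held GGCGCC, and GTCTAGAC was in none but that of Smad6. A match of letters is not a bound site.

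Among the remaining genes, no call was made with TGFβ1. Smad1, the main BMP SMAD here per length after Smad5, was at 57.3 ± 13.2 CPM in treated WT and 42.4 ± 16.5 CPM in treated WWP2-/- cells (-0.43, SE 0.25, edgeR adjusted p = 0.29). Its WWP2-/- mean was raised by replicate 1, at 71.9 CPM against 33.5 to 36.4 CPM in the others. Without that library edgeR called Smad1 lower (-0.73, adjusted p = 0.0437), as it did without both libraries that stood apart (-0.71, adjusted p = 0.0132). With Xist as a covariate the estimate was 0.0127 (edgeR adjusted p = 0.965). Among libraries with Xist, treated WT was at 57.1 to 68.4 CPM and the 1 treated WWP2-/- library at 71.9 CPM, and among those without, the 1 treated WT library was at 35.0 CPM and treated WWP2-/- at 33.5 to 36.4 CPM. In the first class the WWP2-/- library lay above all of WT, and in the second the WT library lay within the WWP2-/- range. Smad5 was at 76.2 ± 8.9 and 73.3 ± 12.4 CPM (-0.06, 95% interval -0.32 to 0.21). The common partner Smad4 was at 116.9 ± 16.5 and 111.3 ± 19.6 CPM (-0.07, -0.34 to 0.20), and Smad2 at 57.1 ± 3.7 and 61.9 ± 8.1 CPM (0.12, -0.09 to 0.32). Ski was at 325 ± 17 and 274 ± 57 CPM (-0.25, -0.54 to 0.05).

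Untreated, the same 5 genes had estimates from -0.17 for Ski to 0.17 for Smad4, and their groups overlapped. Smad2 was at 56.7 ± 2.8 CPM in WT and 57.4 ± 7.3 CPM in WWP2-/- cells (0.02, 95% interval -0.19 to 0.22). Smad5 was at 71.1 ± 4.3 and 72.0 ± 11.01 CPM (0.02, -0.25 to 0.29), and Smad1 at 45.6 ± 6.8 and 46.6 ± 17.2 CPM (0.03, -0.49 to 0.55). Smad4 was at 99.4 ± 7.1 and 111.9 ± 17.4 CPM (0.17, -0.10 to 0.44).

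Across the 20 libraries, Smad6 and Smad9 varied together. On log2(CPM + 1) their Pearson r was 0.848 and Spearman rho 0.872, each with a permutation p of 1e-05, the smallest that 100000 permutations can give, and an adjusted p of 0.00045 over 45 pairs of members. Without the 2 libraries farthest from the Smad6 median, which were those standing apart, r was 0.922, and after the group means were removed it was 0.731. Smad1 and Smad4 had r 0.761 (permutation adjusted p = 0.0027), with a rho of 0.596 that did not pass (permutation adjusted p = 0.0794), and their r was 0.622 without the 2 farthest libraries and 0.832 within groups. Smad7 and Skil formed another pair (r 0.732, permutation adjusted p = 0.0027, rho 0.741, permutation adjusted p = 0.0072). Their r was 0.655 without the 2 farthest libraries and 0.774 within groups. Smad2 and Smad4 had r 0.748, which dropped to 0.480 without WWP2-/- replicate 3 and treated WWP2-/- replicate 1, and Smad6 and Ski had r 0.720, which dropped to 0.449. The permutations ignored the 4 groups, so the p-values also carry the differences between groups, and the r within groups was not tested. Libraries share depth, marker content and Xist class, so these values describe the cultures.

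**Figure D4:**
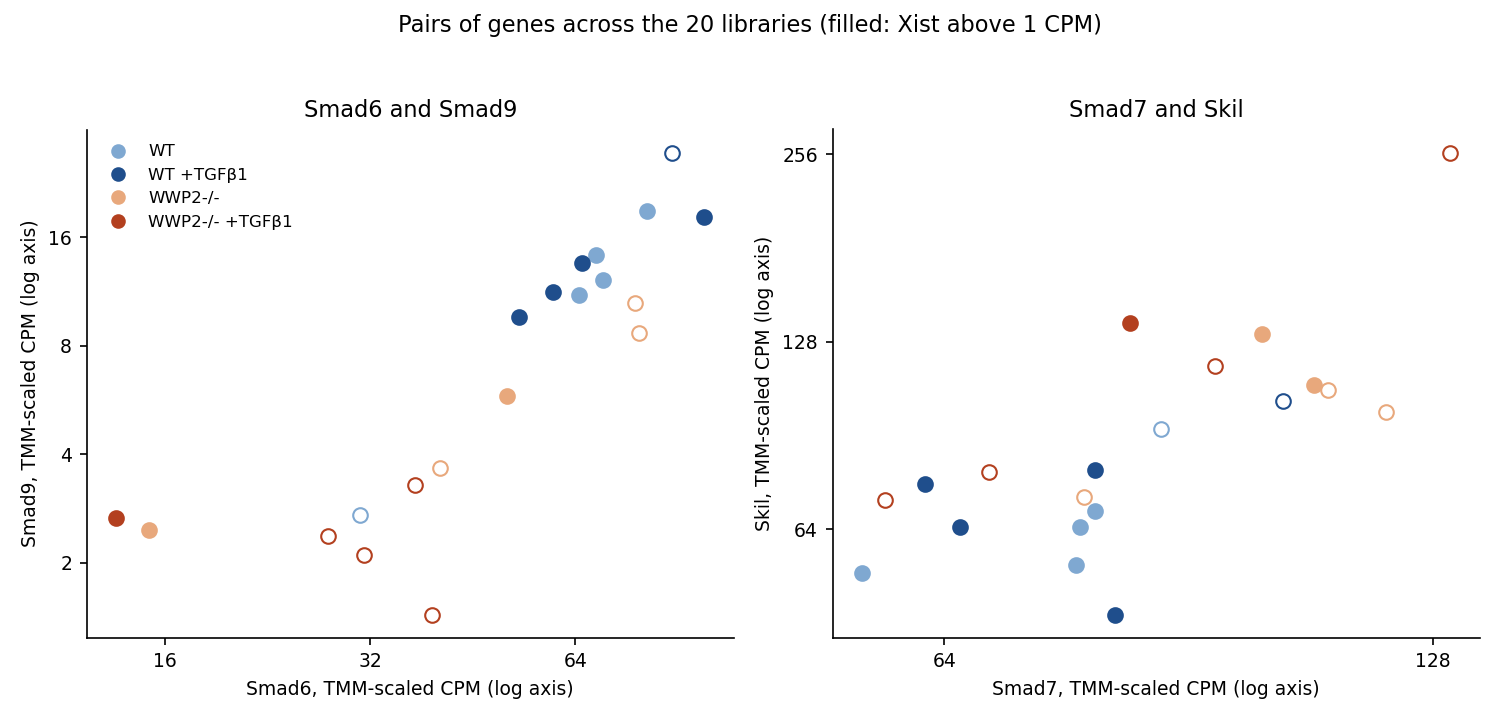
TMM-scaled CPM of Smad9 against Smad6 and of Skil against Smad7 in the 20 libraries, on log axes, coloured by group, with filled points for libraries with Xist above 1 CPM. In the Smad6 and Smad9 plot (r 0.848) the treated WWP2-/- libraries lie at the lower left, together with WT replicate 4 and WWP2-/- replicates 2 and 3.

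Patterns of other genes were compared with each member over the 20 libraries, among 10943 genes of at least 5 CPM on average. Smad6 was most like Hey2 (r = 0.978) and Id3 (r = 0.956), both known as genes that BMP signalling can switch on. Hey2 ran from 0.0805 to 11.7 CPM and Id3 from 9.18 to 737.7 CPM. Smad9 was most like 9930012K11Rik (r = 0.965) and Ppp6r2 (r = 0.924), Skil was most like Atrn (r = 0.973) and Cnnm4 (r = 0.964), and Smad7 most like Lrrfip1 (r = 0.879) and Plekhh2 (r = 0.831). Smad3 was most like Hells (r = 0.861) and Uhrf1 (r = 0.851), 2 chromatin factors of dividing cells. Smad1 was most like the co-receptor gene Tgfbr3 (r = 0.962) and Gaa (r = 0.953). For Smad2 (Ghitm 0.934, Nars 0.928), Smad4 (Azi2 0.973, Il1rap 0.969), Smad5 (Farp1 0.948, Narf 0.946) and Ski (Galnt1 0.969, Slc30a7 0.964) the values of r are likewise over 20 libraries. All are the highest among 10943 genes, a choice that raises r, and none was tested. Without the libraries that stood apart, Smad2 had 0.833 with Ghitm and 0.824 with Nars, and Smad6 had 0.958 with Hey2 and 0.935 with Id3. After the group means were removed, Smad9 had 0.784 with Ppp6r2, and Smad6 had 0.978 with Hey2.

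Around Smad6 and Smad9, a list of 15 BMP-SMAD1/5 target genes was counted, which holds Smad6, Smad7 and Smad9. With TGFβ1, 5 of the 15 were lower and 0 higher in WWP2-/- than in WT cells, beside 3.96% and 2.1% of all genes. The median log2 fold change of the list was -0.97, beside 0.05 over all genes. Smad6 and Smad9 are among the 5, so their calls and part of this median repeat the result above. The list was chosen with earlier results of these data known. Estimates above 0, none of them called, were those of Grem1 (2.21), Nog (1.71), Msx2 (0.91), Hey1 (0.18) and Smad7 (0.15). Id4, an inhibitor of basic helix-loop-helix factors, fell from 48.9 ± 32.4 CPM in treated WT to 3.72 ± 2.74 CPM in treated WWP2-/- cells (-3.72, SE 0.89, edgeR adjusted p = 0.0221). Atoh8, a helix-loop-helix factor, fell from 51.5 ± 25.8 to 6.19 ± 4.50 CPM (-3.05, SE 0.83, edgeR adjusted p = 0.0356), and neither gene's groups overlapped. The 5th gene, Msx1, named after its value was seen, was at 2.54 ± 0.62 and 0.887 ± 0.258 CPM (-1.52, SE 0.32, edgeR adjusted p = 0.0133). It was also the 1 gene of the list called without TGFβ1 (-1.44, edgeR adjusted p = 0.0432). Id3, named for its likeness to Smad6, was lower in every treated WWP2-/- library without passing the test (-2.05, SE 0.69, edgeR adjusted p = 0.0789). The replicate block called 3 of the 15, Id4, Msx1 and Smad9, and a fit of only the groups compared called 4, without Atoh8. Without both libraries that stood apart, 6 of the 15 were lower and 0 higher, where 3480 of 20182 genes (17.2%) were called in either direction. Without WT replicate 4 and treated WT replicate 3, 6 were lower and 1 higher, beside 3322 of 20172 genes (16.5%). With Xist as a covariate 5 were lower, Smad6 and Smad9 among them, but Id4 was not and Id1 was, and 1, Grem1, was higher. Endothelial cells also express several of these genes. Their 8 markers summed to 30.0 to 189.6 CPM (median 38.0) in treated WT and 12.2 to 181.2 CPM (median 88.55) in treated WWP2-/- libraries. Of the 8, edgeR called 2 lower, Tek and Kdr, and 0 higher, while the median log2 fold change over the 8 was 0.60. The endothelial marker Cdh5 lay at 0.551 to 58.2 CPM in treated WT and 2.09 to 46.2 CPM in treated WWP2-/- libraries, and Pecam1 at 0.0613 to 29.6 and 0.0505 to 26.4 CPM. Of the 10 fibroblast markers 3 were called lower. All 10 macrophage markers had higher estimates with an unadjusted p under 0.05, which 5035 of 20407 genes had in either direction. Of these 10 markers edgeR called 0 and DESeq2 10, beside 13.1% of all genes with DESeq2. The part of these markers in the result was not tested.

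The list of 19 TGFβ-SMAD3 target genes had members called in both directions. With TGFβ1, 1 was higher and 4 lower in WWP2-/- cells, beside 2.1% and 3.96% of all genes. The median log2 fold change of the list was 0.32. The collagen genes Col1a2 (-2.63, SE 0.57, edgeR adjusted p = 0.0142) and Col1a1 (-1.98, SE 0.58, edgeR adjusted p = 0.0492) and the matrix gene Postn (-2.44, SE 0.68, edgeR adjusted p = 0.0407) fell, and all 3 are also on the fibroblast marker list. Bhlhe40, a helix-loop-helix repressor, rose from 156.3 ± 53.0 to 336.2 ± 93.1 CPM (1.11, SE 0.27, edgeR adjusted p = 0.0243). Bhlhe40 and the 4th gene that fell, Cilp (-4.95, edgeR adjusted p = 0.0134), were named after their values were seen. Without TGFβ1 only Cilp was called (-5.36, edgeR adjusted p = 0.027), and TGFβ1 itself called 0 of the 19 in WT and 0 in WWP2-/- cells by edgeR, with 1 and 2 at an unadjusted p under 0.05, and 0 by DESeq2. With Xist as a covariate, 0 of the 19 were lower and 2 higher with TGFβ1, and neither collagen gene nor Postn was called. The replicate block and the fit of only the groups compared each called Cilp and Col1a2 alone of the 19. Col1a1 was not called with DESeq2 size factors, Col1a1 and Postn were not with no filter, and Cilp was not with the stricter filter.

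**Figure D5:**
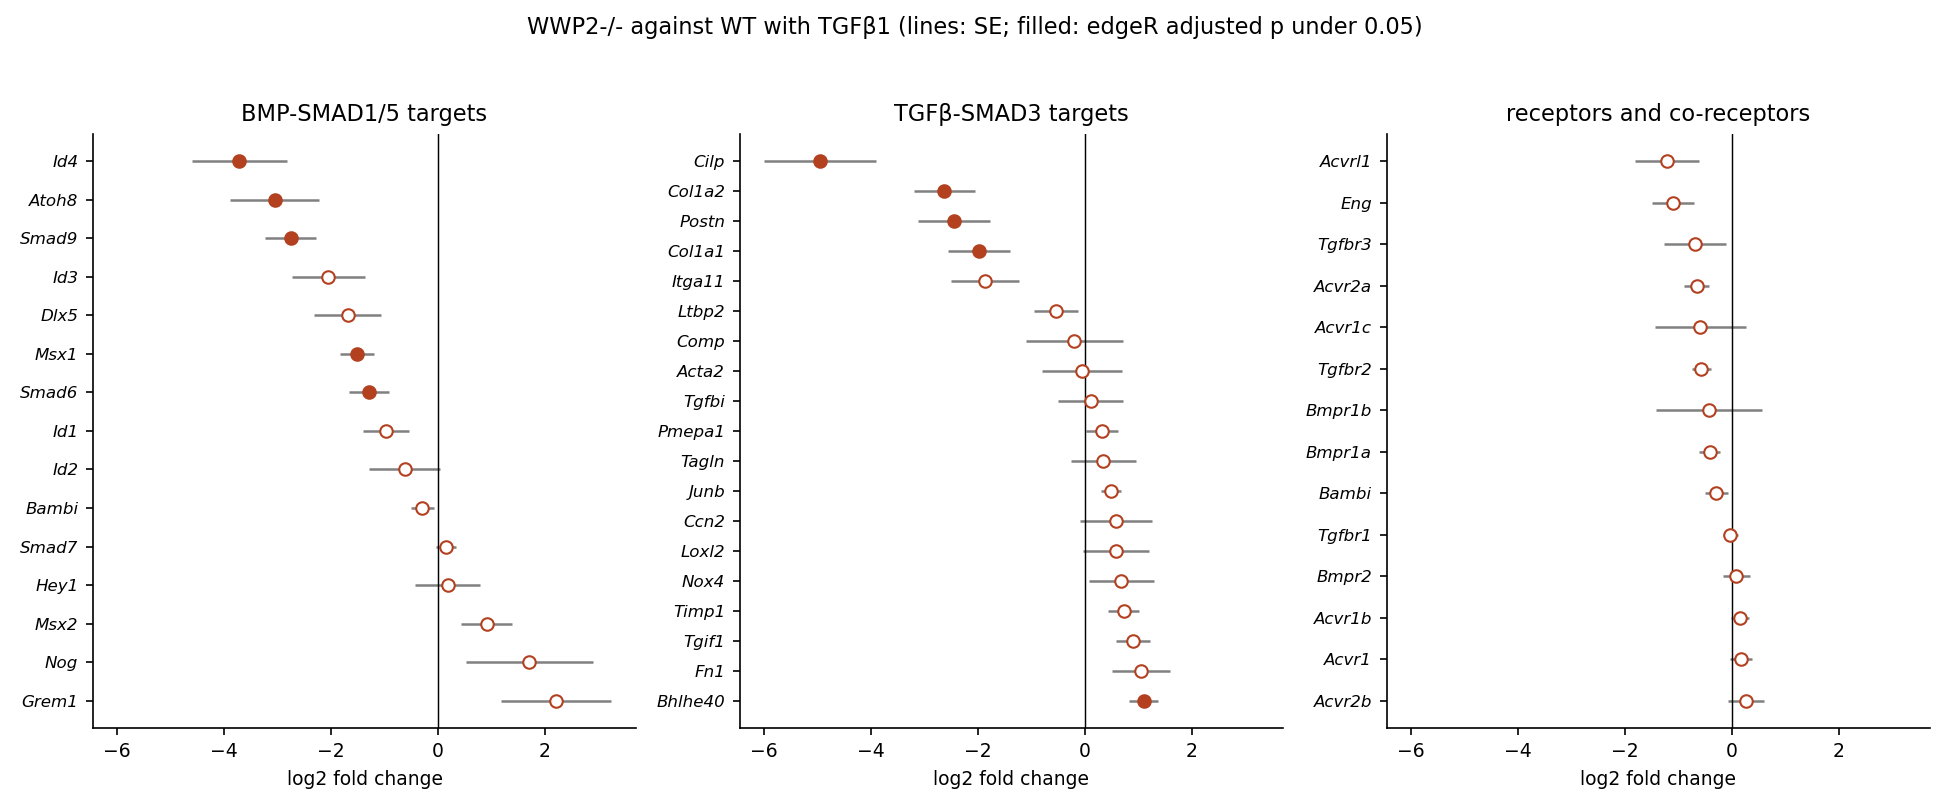
Log2 fold change (x axis) in WWP2-/- against WT cells with TGFβ1 for the listed BMP targets, TGFβ targets and receptors, with SE as lines and filled points at an edgeR adjusted p under 0.05. The BMP targets have 5 filled points, all below 0, with Smad6 and Smad9 among them. The TGFβ targets have 5 filled points, 4 below 0 and 1 above, and the receptors none.

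Upstream of the SMADs, edgeR called 0 of the 14 type I and II receptors and co-receptors with TGFβ1 and 0 without. With TGFβ1, 3 of the 14 had an unadjusted p under 0.05, beside 5035 of 20407 genes. Without it, 4 of the 14 did, beside 3044 genes. The median log2 fold change of the receptors with TGFβ1 was -0.42. DESeq2 called 1 receptor lower with TGFβ1, Tgfbr2, named after its value was seen, and 0 without, beside 13.1% and 3.66% of all genes. Without the libraries that stood apart 3 of the 14 were called lower with TGFβ1, beside 17.2% of all genes called in that fit in either direction, and without WT replicate 4 and treated WT replicate 3 it was 3 of 14 beside 16.5%. Among 17 genes of the ligases and deubiquitinases that act on SMADs, 2 were higher and 1 lower with TGFβ1, beside 2.1% and 3.96% of all genes. The lower was Wwp2 itself, and the higher were Nedd4l, a related ligase of phosphorylated SMAD2 and SMAD3 (1.24, SE 0.33, edgeR adjusted p = 0.0335), and Ndfip2, an adaptor that activates ligases of this family (0.49, SE 0.09, edgeR adjusted p = 0.0086). Ndfip2 was at 61.0 to 69.0 CPM in treated WT and 80.4 to 102.4 CPM in treated WWP2-/- libraries. Nedd4l was not called with Xist as a covariate, with the replicate block or with only the groups compared. Untreated, Wwp2 was the only one of the 17 called.

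Of 23 cofactors, anchors and other corepressors, 21 could be tested (median log2 fold change -0.07 with TGFβ1). With TGFβ1, 3 were lower and 0 higher in WWP2-/- cells, beside 3.96% and 2.1% of all genes. The 3 lower genes were Ctdsp2 and Ctdsp1, small phosphatases that remove phosphate from SMADs, and Pml, whose product helps SMAD2 and SMAD3 reach the receptor. Ctdsp2 fell from 487.3 ± 84.0 to 222.2 ± 49.8 CPM (-1.13, SE 0.20, edgeR adjusted p = 0.00789), and Ctdsp1 from 162.1 ± 14.6 to 103.1 ± 16.6 CPM (-0.65, SE 0.12, edgeR adjusted p = 0.00803), with no overlap of libraries for either. Pml fell from 213.3 ± 56.4 to 116.5 ± 44.6 CPM with overlapping libraries (-0.87, SE 0.25, edgeR adjusted p = 0.0449). Without TGFβ1, edgeR called 0 of the 21 and DESeq2 called 1, beside 3.66% of all genes with DESeq2. An unadjusted p under 0.05 was found for 4 of the 21 and for 3044 of 20407 genes. Pml was not called with Xist as a covariate, with the replicate block, with no filter or with only the groups compared.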

How the data were processed

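Primary renal myofibroblasts of WT and WWP2-/- mice, untreated or TGFβ1-treated, were profiled by poly-A RNA-seq. The authors used STAR against GRCm38 for their read pairs, and deposited a table of raw counts per gene made with featureCounts on exons. The strand setting is not given in the sources used here. Groups and replicate numbers came from the labels.

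A gene was tested if 5 or more libraries had 5 or more counts for it, which held for 20407 of 51826 genes. Counts were scaled by TMM and all 20 libraries were fitted as 4 groups, without a block, by glmQLFit and glmQLFTest of edgeR 4.0.16 in R 4.3.3, with Benjamini-Hochberg adjustment over all genes tested and a threshold of 0.05. The script was tested on simulated data. CPM used TMM-scaled library sizes, and exon lengths came from GENCODE, which names 51633 of the genes. Totals ran from 47520759 to 73063697 counts, and depth covers counting error only. Alternatives were DESeq2 1.42.0 as test or scaling, other filters, a replicate block, Xist as covariate, only the groups compared, an adjusted p under 0.01, and libraries left out. WWP2-/- replicate 3 with treated WWP2-/- replicate 1, and WT replicate 4 with treated WT replicate 3, were left out as alternatives chosen after seeing the data. Replicate numbers gave no pairing, with correlations of deviations from -0.522 to 0.443 between libraries of equal number. Whether treated and untreated cultures with different numbers share an animal is not known, and the main fit treated all libraries as independent. Pair correlations used 100000 permutations of all 20 libraries, regardless of group, with scipy 1.17.1.

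The members and gene lists were chosen with earlier results of these data known. Named genes were the 10 members and Wwp2, up to 3 called genes of at least 1 CPM with the largest fold change per list and comparison, and the 2 genes most like each member. Protein sequences were not analysed here, and 1 gene of the TGFβ-SMAD3 target list is not reported here.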

Additional observations from a re-analysis of the deposited data

Results flagged for a closer look

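Of 44 groups of 5 libraries examined for a library far from the rest (the 10 genes and Wwp2 in 4 groups), 4 held one, where chance gives about 1 in 20. Smad1 was at 76.1 CPM in WWP2-/- replicate 3, against 31.3 to 44.0 CPM in the other untreated WWP2-/- libraries, and at 71.9 CPM in treated WWP2-/- replicate 1, against 33.5 to 36.4 CPM. Smad2 was at 70.0 CPM in WWP2-/- replicate 3, against 52.1 to 57.2 CPM. Smad4 was at 145.3 CPM in treated WWP2-/- replicate 1, against 97.6 to 109.4 CPM. All 4 values come from the pair of libraries that stood apart over all genes.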

How the results depend on the processing

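With TGFβ1, the count of members called in WWP2-/- against WT cells was 2. It was 1, Smad9, with DESeq2 size factors, with no filter, at an adjusted p under 0.01 and with the replicate block, and 1 to 2 when single libraries were left out. With the replicate block Smad6 had -1.31 (adjusted p = 0.0915), and the block called 670 genes with TGFβ1 and 1 untreated. DESeq2 called 3 members, beside 2672 of 20407 genes (13.1%). Leaving out either pair of libraries also called 3, beside 17.2% of all genes without the pair standing apart. Without WT replicate 4 and treated WT replicate 3, 16.5% of all genes were called. Genes called with TGFβ1 ranged from 569 with only the groups compared to 3480 without the pair standing apart, and untreated from 1 to 1136. The other comparisons called 0 members throughout.

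Estimates near 0 changed sign. For TGFβ1 in WT, Smad2 was -0.0142, -0.0037 and -0.00294 with the stricter filter, only the groups compared and the pair standing apart left out, and without WT replicate 4 and treated WT replicate 3, Smad6 was -0.0432, Smad7 -0.0116 and Smad9 -0.101. For TGFβ1 in WWP2-/-, Smad4 was 0.0199, 0.000831, 0.00775, 0.0358, 0.00341 and 0.02004 with DESeq2 size factors, no filter, the stricter filter, the Xist covariate, only the groups compared and DESeq2, and Smad5 was -0.0183 with Xist. Untreated, Smad1 was -0.00444, -0.00185, -0.00449, -0.239 and -0.0503 with DESeq2 size factors, only the groups compared, DESeq2 and either pair left out. Smad2 was -0.0175, -0.00395, -0.00895, -0.0138, -0.0177, -0.0906 and -0.00604 with DESeq2 size factors, no filter, the stricter filter, only the groups compared, DESeq2 and either pair left out, and Smad5 was -0.00833, -0.108, -0.00472 and -0.00817 with DESeq2 size factors, Xist, only the groups compared and DESeq2. With TGFβ1, Smad1 was 0.0127 and Smad4 0.111 with Xist, and Smad5 0.0339 without the pair standing apart. The cause was not tested.

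Leaving out single libraries gave signs on both sides for TGFβ1 in WT in Smad2 (-0.0241 to 0.0447), Smad7 (-0.0629 to 0.129) and Skil (-0.0107 to 0.268). For TGFβ1 in WWP2-/- it did so in Smad1 (-0.401 to 0.117), Smad4 (-0.112 to 0.0945), Smad5 (-0.0535 to 0.125), Ski (-0.00443 to 0.213) and Skil (-0.0267 to 0.527). Untreated it did so in Smad1 (-0.238 to 0.101), Smad2 (-0.0884 to 0.0381) and Smad5 (-0.0798 to 0.082), and with TGFβ1 in Smad3 (-0.138 to 0.0552), Smad5 (-0.122 to 0.0213) and Smad7 (-0.0583 to 0.256). For the interaction it did so in Smad5 (-0.152 to 0.0266), Ski (-0.179 to 0.045) and Skil (-0.159 to 0.392). Under the other alternatives, 402 of 440 fold changes kept direction and side of the threshold. The lowest Smad9 count was 71, and its part in the precision was not tested. The SE of Smad9 was 0.47 in WWP2-/- against WT cells with TGFβ1 and 0.44 for TGFβ1 in WT.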
